A study of Mus musculus with 24 samples.

Results

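Albumin and other secreted plasma proteins of the liver are described here through their transcripts in control and DNMT1 knockout mouse liver. The group was defined by gene symbol as Alb, Ttr, Trf, Ahsg, Rbp4, Apoh, Apoa1, Apob, Serpina6 and Hpx. Of these 10 genes, 9 were found on the array through 11 probes, of 25697 probes for 17893 genes in all, and Apob was not analysed here. Ahsg and Hpx had 2 probes each, and the brighter one stands for the gene unless the other is named. All 11 probes lay above background on every array.

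Hepatocytes make most of the proteins of blood plasma and release them through the secretory pathway. Albumin holds the osmotic pressure of blood and carries fatty acids, bilirubin and drugs, while the other members carry hormones, retinol, iron, haem or lipids, or bind phospholipid surfaces. Transcription of these genes in hepatocytes depends on a small set of liver factors that includes the HNF4 and C/EBP families. DNMT1 is the enzyme that copies cytosine methylation at CG dinucleotides onto newly made DNA.

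Total liver RNA was hybridised to Illumina mouse arrays, with 6 groups of 4 arrays: control liver at weeks 4, 8 and 20 and DNMT1 knockout liver at weeks 4, 8 and 20. The labels give neither the strain, the sex and the promoter or Cre behind the knockout nor whether arrays of 1 group stand for different mice. All p-values therefore rest on the spread between arrays, which may be technical. Week is given as a number alone, without saying whether it counts age or time from an event. Values are the authors' normalized intensity. Each difference is the knockout mean less the control mean of log2(intensity + 16), between 4 and 4 arrays. The value after ± is its SE, which comes from the spread within groups pooled over all 24 arrays and moderated by limma, so that a gene has 1 SE at every week, whatever the spread of the groups compared. Adjusted p-values come from a limma fit over 10728 genes with Benjamini-Hochberg adjustment and a threshold of 0.05. The targeted gene, read by 1 probe, had Dnmt1 differences of -0.25, -0.30 and -0.58 at weeks 4, 8 and 20 (SE 0.19, adjusted p = 0.364, 0.200 and 0.0736). No source says whether that probe lies in the deleted part, so it does not check the labels.

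A few arrays did not resemble the rest of their group. Replicates 3 and 4 of control week 20 had a mean log2 signal over 24 acute phase genes of 12.6 and 12.5, against 10.3 and 10.2 on replicates 1 and 2, and Saa1, the main acute phase serum amyloid, read 6266 and 5870.1 against 42 and 44. On knockout week 8 replicate 4 the Y-linked gene Eif2s3y read -11 where the other knockouts of that week read 544 to 600.1. Ddx3y, also Y-linked, read 155 on it against 1661 to 2442, and Xist, the X inactivation RNA, 131 against 34 to 43. Xist was not raised on that array alone. On the week 4 knockouts it read 47 to 94, with Eif2s3y at 567 to 627, and on the week 4 controls -0.651 to 6.20. These genes were chosen after their values were known. Member results that rest on the arrays unlike their group are given with and without them. Counts over other genes and values of named genes are also given so where leaving those arrays out ended a call or moved a count by over 1.5 times. No 2 arrays held identical values.

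Promoter sequence is shown for 4 of the members because DNMT1 acts on CG dinucleotides and because Alb and Apoh both fell at weeks 4 and 8 while Ahsg and the brighter probe of Hpx did not pass the test at those weeks. Each line is the 250 bases before the transcription start in RefSeq, mouse assembly GRCm38.p6, 5′ to 3′ on the gene's strand, with every CG in capitals. They are chr5:90460620-90460869 on the plus strand for Alb, chr11:108395047-108395296 on the plus strand for Apoh, chr16:22891765-22892014 on the plus strand for Ahsg and chr7:105600117-105600366 on the minus strand for Hpx.
Alb: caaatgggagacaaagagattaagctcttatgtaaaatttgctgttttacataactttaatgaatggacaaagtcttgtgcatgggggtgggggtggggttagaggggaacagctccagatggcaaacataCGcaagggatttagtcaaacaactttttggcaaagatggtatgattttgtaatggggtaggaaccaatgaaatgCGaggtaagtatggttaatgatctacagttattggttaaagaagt
Apoh: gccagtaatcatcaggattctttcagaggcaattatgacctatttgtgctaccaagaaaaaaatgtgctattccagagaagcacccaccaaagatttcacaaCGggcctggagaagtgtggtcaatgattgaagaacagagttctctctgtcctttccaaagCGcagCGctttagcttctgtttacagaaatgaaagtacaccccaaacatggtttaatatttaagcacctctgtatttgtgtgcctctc
Ahsg: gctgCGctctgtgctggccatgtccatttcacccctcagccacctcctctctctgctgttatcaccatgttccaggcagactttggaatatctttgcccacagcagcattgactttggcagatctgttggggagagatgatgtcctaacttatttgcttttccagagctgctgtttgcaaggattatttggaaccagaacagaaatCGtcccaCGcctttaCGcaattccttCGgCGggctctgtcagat
Hpx: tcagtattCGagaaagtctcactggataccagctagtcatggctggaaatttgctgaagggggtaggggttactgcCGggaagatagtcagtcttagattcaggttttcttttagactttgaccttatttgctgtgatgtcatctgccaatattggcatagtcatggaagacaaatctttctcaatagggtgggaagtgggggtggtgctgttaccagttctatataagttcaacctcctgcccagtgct
The window held 2 CG dinucleotides for Alb, 3 for Apoh, 6 for Ahsg and 2 for Hpx. Over 32851 mouse promoters of the same length the median was 6, with quartiles of 2 and 16. Apoa1 had 4 and Apob 7 in this window, and the 2 starts of Rbp4 had 5 and 28. Short motifs were looked for on both strands. Part of the HNF1 site, GTTAAT, stood 1 time in Alb and in none of the other windows, and 6.43% of all promoters held it. The box CCAAT stood 2 times in Alb, 2 times in Hpx and 1 time in the upstream window of Rbp4, and 33.8% of all promoters held it. Part of the HNF4 site, CAAAGT, stood 1 time each in Alb and Hpx and 2 times in Ahsg (12.6% of all promoters), and the box TATAAA stood 1 time each in Apob and the downstream window of Rbp4 (12.4%). These matches describe letters and no methylation was measured on these arrays.

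Among the 9 measured members, Alb, Apoh and Serpina6 fell at week 4, Alb, Apoh and Rbp4 fell at week 8, and Alb alone of them remained past the threshold at week 20. None rose by the probe used for the gene. The groups did not overlap for Alb, Apoh and Serpina6 at week 4, for Alb and Apoh at week 8 and for Alb at week 20, where 14.1%, 21.4% and 4.48% of all genes were lower without overlap. The counts of members called lower were 3, 3 and 1 of 9, where 12.4%, 24.0% and 2.23% of all genes tested were lower at weeks 4, 8 and 20. The median difference of the 9 members was -0.06, -0.07 and 0.01, against -0.01, -0.07 and 0.00 over all genes. The members thus divided into a few with large falls and a larger number near 0, as the plot of intensities by array shows. Those called at no week by the probe used, Ttr, Trf, Ahsg, Apoa1 and Hpx, were also those read near the top of the scale. Their small differences are therefore limited by the probes, as described below.

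**Figure D1:**
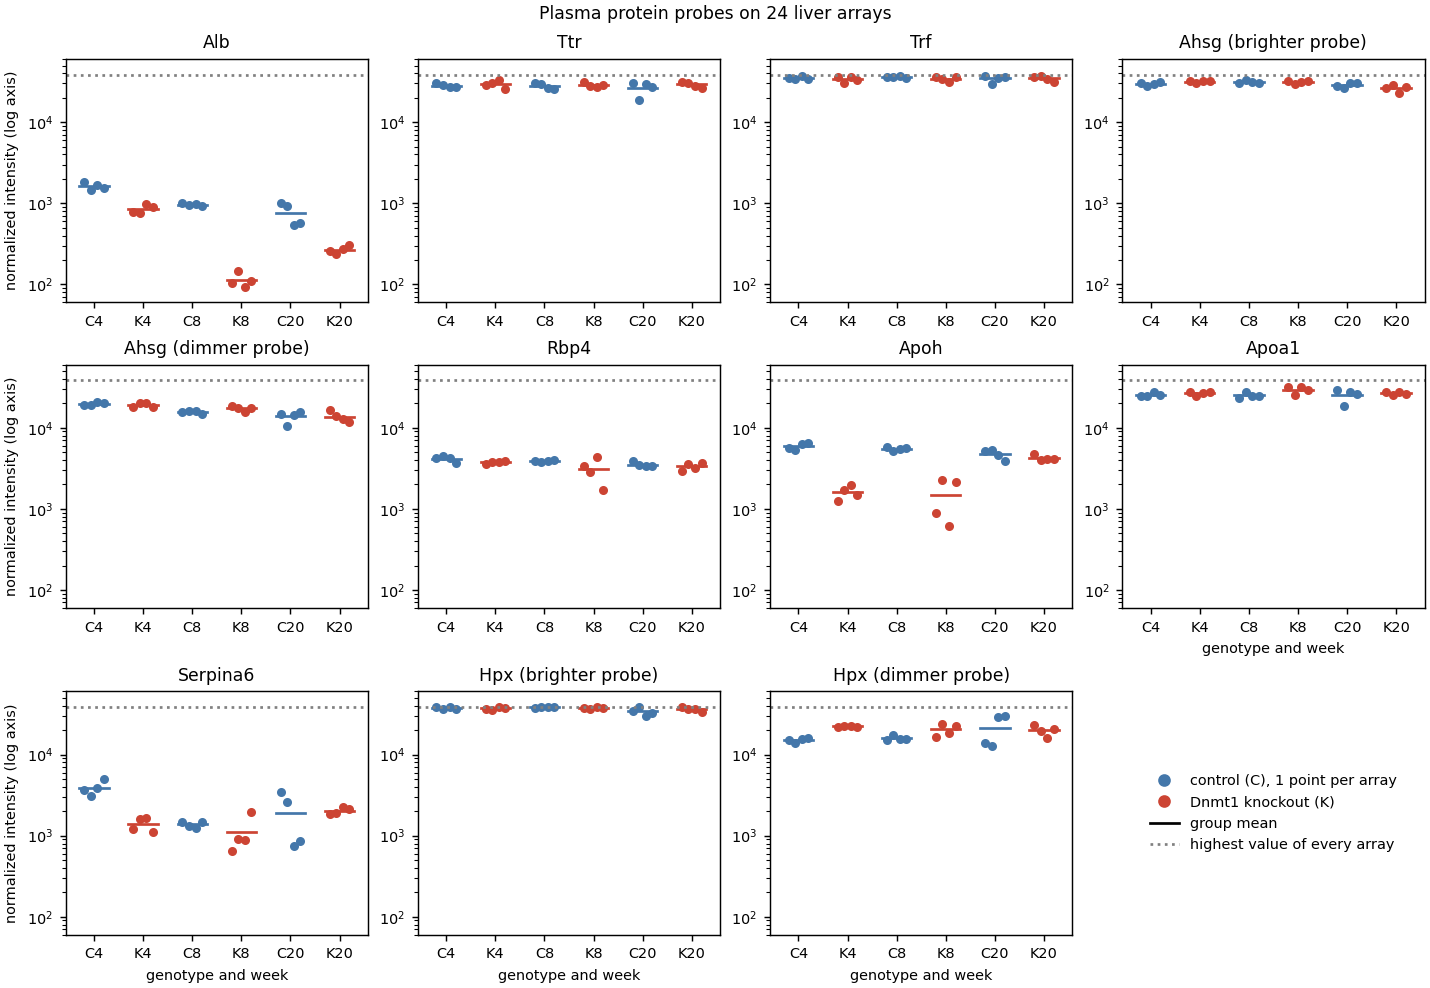
Normalized intensity (log axis) of the 11 probes on each array, with control (blue) and knockout (red) groups at weeks 4, 8 and 20, 4 arrays per group, bars at group means and a dotted line at the highest value of every array, 38683. Alb falls furthest in knockout liver at week 8, Apoh is low at weeks 4 and 8 and near control at week 20, and 5 genes lie close to the dotted line in every group.

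Alb, the albumin gene, was lower in knockout liver at every week. In controls it read 1805, 1466, 1702 and 1558 at week 4, 997, 951, 972 and 925 at week 8, and 997, 925, 545 and 570.4 at week 20. In knockouts it read 776, 750.3, 989 and 898 at week 4, 104, 145, 93 and 109 at week 8, and 258, 234, 270.4 and 305 at week 20. The groups did not overlap at any week, and the 4 knockout arrays of week 8 were the 4 lowest of all 24.

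The Alb difference was -0.93 ± 0.16, -2.94 ± 0.16 and -1.41 ± 0.16 at weeks 4, 8 and 20, with adjusted p-values of 1.2e-04, 3.3e-13 and 5.6e-06. Knockout intensity + 16 was 52.6%, 13.0% and 37.7% of control. From week 4 to 8 the difference itself changed by -2.01 ± 0.23 (adjusted p = 2.1e-06), and from week 8 to 20 by 1.53 ± 0.23 (adjusted p = 1.8e-05). Such a change was more negative in 3.36% of all genes from week 4 to 8 and more positive in 14.2% from week 8 to 20. The knockout deficit of Alb was thus deepest at week 8 and partly made up by week 20. Bulk RNA does not tell fewer hepatocytes from less Alb RNA per hepatocyte.

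A single probe, ILMN_2651160, read Alb, and all Alb results rest on it. It ranked between 1411 and 7582 among the probes of an array, although albumin mRNA is known as one of the most abundant of the liver. Why this probe was dim, and where on the transcript it binds, was not examined here. Its low rank left it far from the top of the scale, with the highest value of the array 23.5-fold above the control mean of week 4 and 304-fold above the knockout mean of week 8, as ratios of intensity + 16 to the geometric mean.

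Apoh encodes beta-2-glycoprotein I (apolipoprotein H), which binds phospholipid surfaces in plasma. Control arrays read 5629, 5297, 6383 and 6493 at week 4, 5788, 5167, 5491 and 5588 at week 8, and 5227, 5297, 4674 and 3937 at week 20. Knockout arrays read 1262, 1711, 1952 and 1486 at week 4, 895, 2272, 613 and 2160.0 at week 8, and 4761, 4025, 4138 and 4099 at week 20. All knockout arrays of weeks 4 and 8 lay below all control arrays, and at week 20 the groups overlapped.

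Apoh differed by -1.90 ± 0.26 at week 4 and by -2.09 ± 0.26 at week 8 (adjusted p = 4.5e-06 and 2.8e-07), a fall to 26.9% and 23.5% of control. At week 20 it differed by -0.16 ± 0.26 (adjusted p = 0.769), with a 95% interval of -0.69 to 0.37. The difference changed by 1.93 ± 0.36 from week 8 to 20 (adjusted p = 2.5e-04) and by 1.73 ± 0.36 from week 4 to 20 (adjusted p = 0.00218). More positive changes were called in 14.2% and 6.09% of all genes in these comparisons. Unlike Alb, the Apoh difference from week 4 to 8 did not pass the test (-0.19 ± 0.36, adjusted p = 0.821). Within the knockouts of week 8 Apoh spread widely, since replicates 1 and 3 read 895 and 613 and replicates 2 and 4 read 2272 and 2160.0.

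Serpina6 encodes corticosteroid-binding globulin, the plasma carrier of glucocorticoids. Control arrays read 3636, 3126, 3919 and 4936 at week 4, 1478, 1299, 1259 and 1484 at week 8, and 3466, 2618, 743 and 848 at week 20. Knockout arrays read 1221, 1609.7, 1646 and 1101 at week 4, 647, 912, 887 and 1965 at week 8, and 1837, 1891, 2256 and 2104 at week 20. The groups were apart at week 4 and overlapped at weeks 8 and 20. Knockout replicate 4 lay far above the others of week 8, and the controls of week 20 split into 2 high and 2 low arrays.

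Serpina6 fell by 1.48 ± 0.34 on the log2 scale at week 4 (adjusted p = 0.00217), to 35.9% of control. It differed by -0.44 ± 0.34 at week 8 (adjusted p = 0.299) and by 0.38 ± 0.34 at week 20 (adjusted p = 0.570). Without knockout week 8 replicate 4, its highest array of that group, the week 8 value was -0.76 (adjusted p = 0.0682). Without control week 20 replicates 3 and 4, its lowest arrays of that group, the week 20 value was -0.58 (adjusted p = 0.279). The change of the difference from week 4 to 20 was 1.85 ± 0.49 (adjusted p = 0.0130), and 0.90 (adjusted p = 0.120) without those 2 control arrays.

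Rbp4, the plasma retinol-binding protein, and Ttr, transthyretin, which carries thyroxine and holds the retinol-binding protein in the circulation, form a complex in plasma. At week 8 the Rbp4 controls read 3932, 3753, 3900.3 and 3993 and the knockouts 3410.3, 2876, 4345 and 1724. Replicate 3 of the knockouts lay above every control and replicate 4 far below them. The difference was -0.41 ± 0.16 (adjusted p = 0.0408), and -0.16 (adjusted p = 0.276) without knockout replicate 4. At weeks 4 and 20 Rbp4 lay between 3624 and 4504 and between 2954 and 3842 over both genotypes, with differences of -0.15 ± 0.16 and -0.07 ± 0.16 (adjusted p = 0.538 and 0.855).

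Ttr read 25885 to 32969 on 23 of the 24 arrays, and 18694 on control week 20 replicate 2. Its differences were 0.07 ± 0.12, 0.04 ± 0.12 and 0.16 ± 0.12 at weeks 4, 8 and 20 (adjusted p = 0.728, 0.809 and 0.469). The 95% intervals ran from -0.18 to 0.31, from -0.21 to 0.28 and from -0.08 to 0.40. Ttr thus lay near the top of the scale in every group and Rbp4 well below it, and the difference between the partners was not tested.

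**Figure D2:**
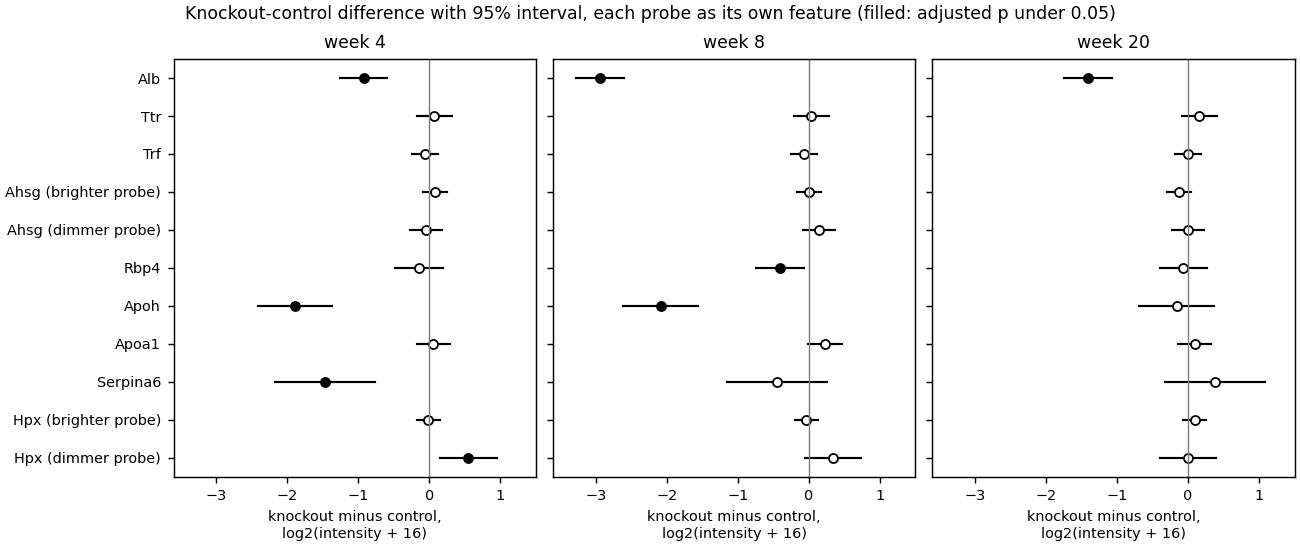
Knockout minus control difference of each probe on the log2(intensity + 16) scale at weeks 4, 8 and 20 (points, 4 arrays per group) with 95% intervals (lines), each probe tested as its own feature, filled where the adjusted p was under 0.05. Alb is lower at all 3 weeks, Apoh at weeks 4 and 8, Serpina6 at week 4 and Rbp4 at week 8, and the dimmer Hpx probe is higher at week 4 (0.55).

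The other 4 members near the top of the scale were Trf, transferrin, the iron carrier, Ahsg, fetuin-A, which binds calcium phosphate, Apoa1, the main protein of high-density lipoprotein, and Hpx, hemopexin, which binds free haem. Trf read 29841 to 37471 over all arrays, with differences of -0.06, -0.07 and 0.01 in order of week (SE 0.09, adjusted p = 0.625, 0.506 and 0.981). Ahsg read 23039.7 to 33249.9 and differed by 0.08 ± 0.08, -0.00 ± 0.08 and -0.13 ± 0.08 (adjusted p = 0.514, 0.995 and 0.338). Its dimmer probe read 10574 to 20563 and differed by -0.05 ± 0.11, 0.15 ± 0.11 and -0.00 ± 0.11 (adjusted p = 0.784, 0.294 and 0.999, each probe a feature). Neither Ahsg probe passed the test in any knockout-control comparison.

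At week 8 the Apoa1 controls read 23553, 27395, 24848 and 24294 and the knockouts 31751, 25012, 31751 and 29175. Of the knockouts, replicates 1, 3 and 4 lay above every control and replicate 2 among them. The difference was 0.23 ± 0.11 (adjusted p = 0.0949) at week 8, and 0.31 (adjusted p = 0.0349) without knockout replicate 2. At weeks 4 and 20 it was 0.05 ± 0.11 and 0.09 ± 0.11 (adjusted p = 0.764 and 0.685).

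These bright probes had little room to rise. The sorted values were the same on all arrays at the 1000 highest ranks, so that each array ended at 38683, and a probe could move only by changing places with others. The mean of the brighter Hpx probe lay 1.01-fold to 1.14-fold below that value in the 6 groups, that of Trf 1.07-fold to 1.15-fold, Ahsg 1.23-fold to 1.48-fold, Ttr 1.32-fold to 1.48-fold and Apoa1 1.32-fold to 1.55-fold. The brighter Hpx probe held the highest value on 9 arrays and one of the 3 highest on 19 of 24, and Trf held one of the 3 highest on 9. A fall was not limited in this way by the ranks, since rank 100 lay 2.24-fold and rank 500 lay 7.24-fold below the top. Whether the scanner signal of these probes was itself saturated cannot be read from normalized values. Near-zero differences of Hpx, Trf, Ahsg, Ttr and Apoa1 therefore set no bound on a rise beyond this room. If the scanner signal was saturated, they would not bound a fall either, and this was not tested. In controls from week 4 to 8 the mean of the dimmer Ahsg probe went from 19764 to 15678. That of the brighter Ahsg probe went from 29934 to 31506.

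**Figure D3:**
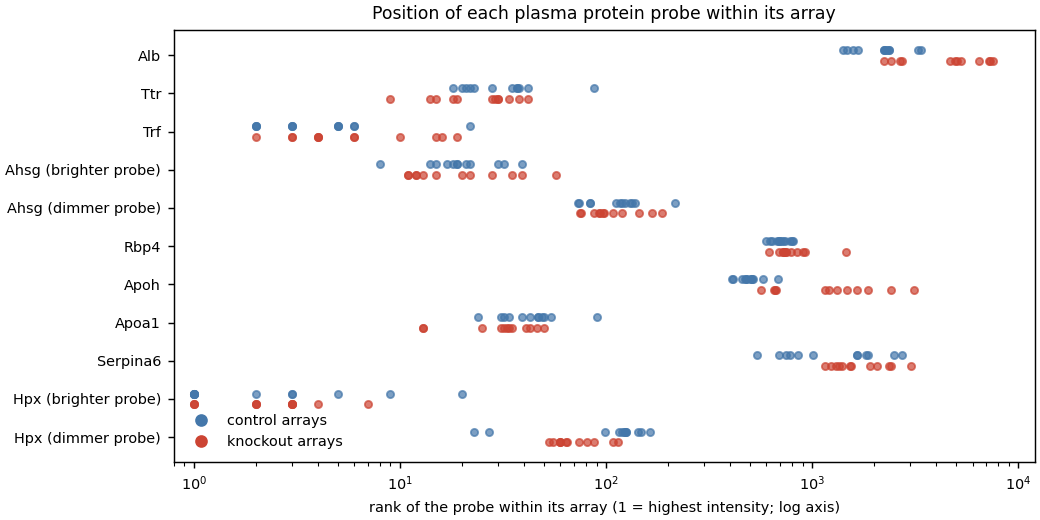
Rank of each probe within its array (log axis, 1 is the highest intensity) on the 12 control (blue) and 12 knockout (red) arrays, 1 point per array. The brighter Hpx probe and Trf lie between ranks 1 and 22, the Alb probe between 1411 and 7582.

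The 2 Hpx probes gave different values. The brighter one, ILMN_2744565, read 38683, 36381, 38683 and 36381 on the week 4 controls and 36381, 35705, 38683 and 37471 on the knockouts, a difference of -0.02 ± 0.08 (adjusted p = 0.887). The dimmer one, ILMN_2830333, read 15299, 14043, 15458 and 15971 in controls and 21975, 22569.6, 22569.6 and 21797 in knockouts. On the dimmer probe all 4 knockout arrays lay above all 4 controls, whereas the brighter one overlapped.

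With each probe tested as its own feature, the dimmer Hpx probe rose by 0.55 ± 0.19 at week 4 (adjusted p = 0.0356), to 146% of control, where 13.0% of all probes were higher. Its 1.46-fold rise was larger than the room of the brighter probe. At week 8 the dimmer probe read 15299, 17405, 15676 and 15508 in controls and 16600.3, 23745, 18694 and 22569.6 in knockouts, a difference of 0.34 ± 0.19 (adjusted p = 0.151). At week 20 the difference was -0.00 ± 0.19 (adjusted p = 1.0), with controls at 13718, 12816, 28723 and 29632 and knockouts at 23362, 19409, 16148 and 20414. The pair of high controls at week 20 were the acute phase arrays, replicates 3 and 4.

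Within controls, Alb fell by 0.75 ± 0.16 on the log2 scale from week 4 to 8 (adjusted p = 0.00372), and Serpina6 by 1.47 ± 0.34 (adjusted p = 0.00703), without overlap of the groups. These were 2 of 9 members, where 4.79% of all genes were called lower and 10.4% were lower without overlap. From week 8 to 20 none of the 9 passed the limma test in controls, 2 of them (Alb and Hpx) had an unadjusted p under 0.05, and 0.0280% of all genes were called. Alb then differed by -0.38 ± 0.16 (adjusted p = 0.462) and Serpina6 by 0.17 ± 0.34 (adjusted p = 0.950). Serpina6 was already low in controls at week 8, so that its knockout values of that week, 647 to 1965, were set against controls of 1259 to 1484 rather than the 3126 to 4936 of week 4.

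Within knockouts, Alb fell by 2.76 ± 0.16 from week 4 to 8 (adjusted p = 2.0e-11), 1 of 9 members lower where 4.02% of all genes were. From week 8 to 20 Alb rose by 1.15 ± 0.16 (adjusted p = 3.3e-06), Apoh by 1.71 ± 0.26 (adjusted p = 6.8e-06) and Serpina6 by 0.99 ± 0.34 (adjusted p = 0.0229), 3 of 9 members higher where 20.8% of all genes were. Ahsg fell by 0.26 ± 0.08 (adjusted p = 0.00799), 1 member lower where 22.2% of all genes were, and its dimmer probe by 0.35 ± 0.11 (adjusted p = 0.0141, 20.0% of all probes lower). The Ahsg call ended when only the arrays of the groups compared were fitted (adjusted p = 0.0675). The Serpina6 rise lost its call in 5 of the alternatives tried, among them leaving out knockout week 8 replicate 1 (0.78, adjusted p = 0.0974).

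At week 20 the deficit left was that of Alb. Its arrays read 258, 234, 270.4 and 305 in knockouts, below the lowest control of 545. Control replicates 3 and 4, with Alb at 545 and 570.4 and Serpina6 at 743 and 848, were the arrays with the highest acute phase mean, and the dimmer Hpx probe was highest on them. Without those 2 arrays the Alb difference was -1.79 (adjusted p = 8.1e-08) rather than -1.41, and its change from week 4 to 20 was -0.86 (adjusted p = 0.00751) rather than -0.48 ± 0.23 (adjusted p = 0.174). The change of the Alb difference from week 8 to 20 was 1.15 (adjusted p = 1.6e-04) without them. Among 24 acute phase genes, 1 was lower and 0 were higher in week 20 knockouts. Without control replicates 3 and 4, 1 was lower and 8 were higher. In mean log2 signal, each week 20 knockout (10.8 to 11.4) lay above control replicates 1 and 2 and below 3 and 4. Leaving the 2 arrays out thus did not make the groups alike in acute phase signal. At week 4 the means were 10.7 to 11.1 on knockouts and 10.4 to 10.6 on controls, and at week 8 they overlapped. The part of the acute phase difference in these results was not tested beyond leaving the 2 arrays out. Apoh read 5227 and 5297 on replicates 1 and 2 and 4674 and 3937 on replicates 3 and 4, a smaller gap than that of Serpina6.

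**Figure D4:**
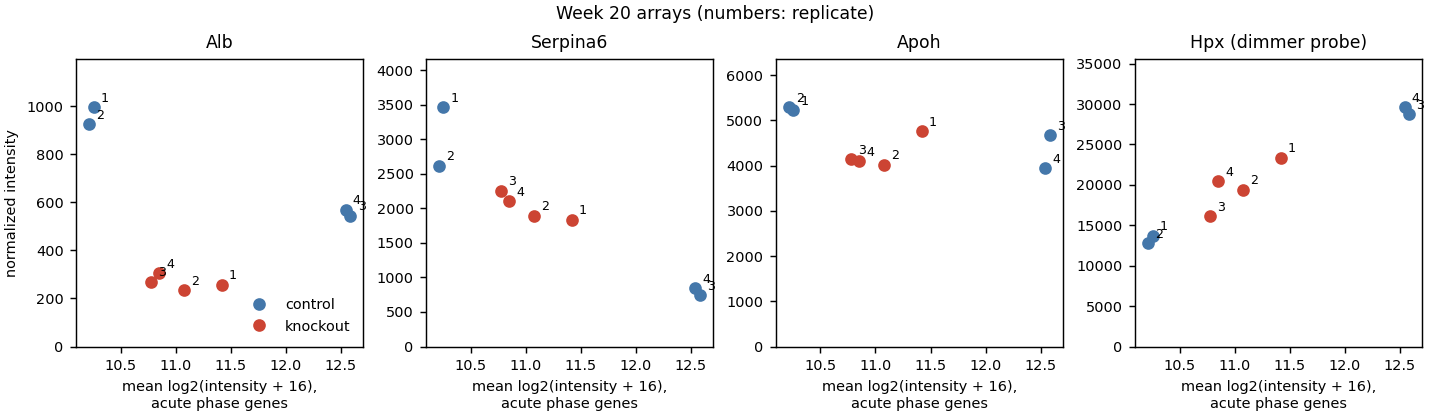
Normalized intensity of Alb, Serpina6, Apoh and the dimmer Hpx probe against the mean log2(intensity + 16) of 24 acute phase genes on the 8 arrays of week 20, with controls in blue, knockouts in red and the replicate number beside each point. Control replicates 3 and 4 stand at the right, with lower Alb and Serpina6 and higher Hpx than control replicates 1 and 2.

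The albumin gene family gave a mixed picture. Afp, alpha-fetoprotein, the fetal relative of albumin, and Afm, afamin, a vitamin E carrier, lie beside Alb on mouse chromosome 5, and Gc, the vitamin D-binding protein, lies on the same chromosome. Afp read -8.19 to 0.172 in controls and 99.6 to 287 in knockouts at week 8, a rise of 3.49 ± 0.31 (adjusted p = 1.9e-09) on a scale that does not give the fold of a gene at background in one group. Afm fell by 0.90 ± 0.21 at week 4 (adjusted p = 0.00216) and by 1.44 ± 0.21 at week 8 (adjusted p = 4.1e-06), and its week 20 difference was -0.08 ± 0.21 (adjusted p = 0.864). Gc differed by 0.07 ± 0.17 at week 4 (adjusted p = 0.786) and fell by 0.90 ± 0.17 at week 8 (adjusted p = 7.5e-05) and by 0.60 ± 0.17 at week 20 (adjusted p = 0.0340, and 0.0902 without control replicates 3 and 4). Afp was thus above control at the week at which Alb, Afm and Gc were below it.

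Counts over the lists that follow stand against all genes tested, of which 12.4% were lower and 14.8% higher at week 4, 24.0% and 24.9% at week 8, and 2.23% and 3.44% at week 20. Without control replicates 3 and 4 the week 20 shares were 1.04% and 1.81%. A count near these shares says nothing of a list.

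Other plasma carriers, listed with earlier results of these data known, were lower for 4 and higher for 0 of 21 measured genes at week 4, 11 and 2 at week 8, and 1 and 0 at week 20. Their median difference was -0.26, -0.51 and -0.08 at weeks 4, 8 and 20. At week 8 this was 52.4% of the list lower and 9.52% higher. At week 20 the lower gene was Gc, whose call ended without control replicates 3 and 4. At week 4 the 4 lower ones were Afm, Serpina7 (-1.28 ± 0.33), thyroxine-binding globulin, Cpn2 (-0.88 ± 0.18), a subunit of carboxypeptidase N, and Ghr (-0.82 ± 0.15), the growth hormone receptor, whose shed part binds the hormone in plasma. At week 8 Cpn2 (-1.23 ± 0.18) and Ghr (-1.18 ± 0.15) were lower again.

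Apolipoproteins and lipoprotein assembly genes were lower for 5 and higher for 2 of 22 at week 4, 8 and 5 at week 8, and 0 and 2 at week 20, with medians of -0.17, -0.15 and 0.02. The week 8 shares of 36.4% lower and 22.7% higher stood beside 24.0% and 24.9% of all genes. Without control replicates 3 and 4 the week 20 count was 0 and 1. Apon, apolipoprotein N, fell by 1.86 ± 0.21 at week 8 (adjusted p = 6.7e-08). Apoc2, the activator of lipoprotein lipase, rose by 0.52 ± 0.12 at week 4 (adjusted p = 0.00223). Anxa5, a phospholipid-binding protein of many cell types that is no apolipoprotein, rose at all 3 weeks (1.78 ± 0.10, 2.21 ± 0.10 and 0.57 ± 0.10). Mttp, which loads lipid onto apolipoprotein B, fell by 0.45 ± 0.17 at week 8 (adjusted p = 0.0350), and its adjusted p was 0.0592 without knockout replicate 4. Apoc3 and Apoe, whose group means lay between 14.8 and 15.1 on the log2 scale and so near the top of the scale, differed by less than 0.15 at every week. Apoa2, with group means between 14.7 and 15.0, differed by 0.14, 0.21 and 0.15 at weeks 4, 8 and 20 (SE 0.08). Its adjusted p-values were 0.218, 0.0369 and 0.282, so that it was called higher at week 8. Its week 8 value without knockout replicate 4 is not given here.

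Plasma protease inhibitors were lower for 9 and higher for 0 of 24 at week 4, 11 and 1 at week 8, and 0 and 0 at week 20, with medians of -0.15, -0.35 and -0.01. The lower genes were 37.5% of the list at week 4 and 45.8% at week 8. Without knockout replicate 4 the week 8 count was 12 lower and 0 higher. At week 20 the limma count of 0 stood beside 1 lower under the replicate block and 2 higher without control replicates 3 and 4. Serpina3k, a serpin of the antichymotrypsin group, fell by 1.84 ± 0.36 at week 4 and by 3.19 ± 0.36 at week 8 (adjusted p = 4.1e-04 and 8.4e-08). Hrg, histidine-rich glycoprotein, fell by 1.55 ± 0.16 and Fetub, fetuin-B, a paralog of Ahsg, by 0.90 ± 0.13 at week 8 (adjusted p = 1.3e-08 and 3.7e-06). Serpins of the Serpina1 and Serpina3 groups have close paralogs, so which copy a probe such as that of Serpina3k read is uncertain.

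Complement components and plasma lectins were lower for 6 and higher for 5 of 23 at week 4, 11 and 1 at week 8, and 1 and 0 at week 20, with medians of -0.14, -0.75 and -0.00. Of the list, 47.8% were lower and 4.35% higher at week 8. Without control replicates 3 and 4 the week 20 count was 0 lower and 3 higher. Masp1, a protease of the lectin pathway, fell by 1.06 ± 0.15 at week 4 and by 1.47 ± 0.15 at week 8 (adjusted p = 1.1e-05 and 2.2e-08). C8a, a subunit of the membrane attack complex, fell by 2.15 ± 0.26 at week 8 (adjusted p = 2.0e-07). C6, another component of that complex, rose by 2.27 ± 0.25 at week 4 (adjusted p = 2.1e-07). Fgb, a fibrinogen chain counted among the acute phase genes, fell at weeks 4, 8 and 20 by 1.22 ± 0.29, 2.58 ± 0.29 and 2.66 ± 0.29 (adjusted p = 0.00264, 8.2e-08 and 2.9e-06). Its knockout means of 4.44 at week 8 and 4.62 at week 20 on the log2 scale were at background. The falls of those weeks therefore do not give a fold. Fgb does not stand for the acute phase list, of which 3 genes were lower and 4 higher at week 8.

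**Figure D5:**
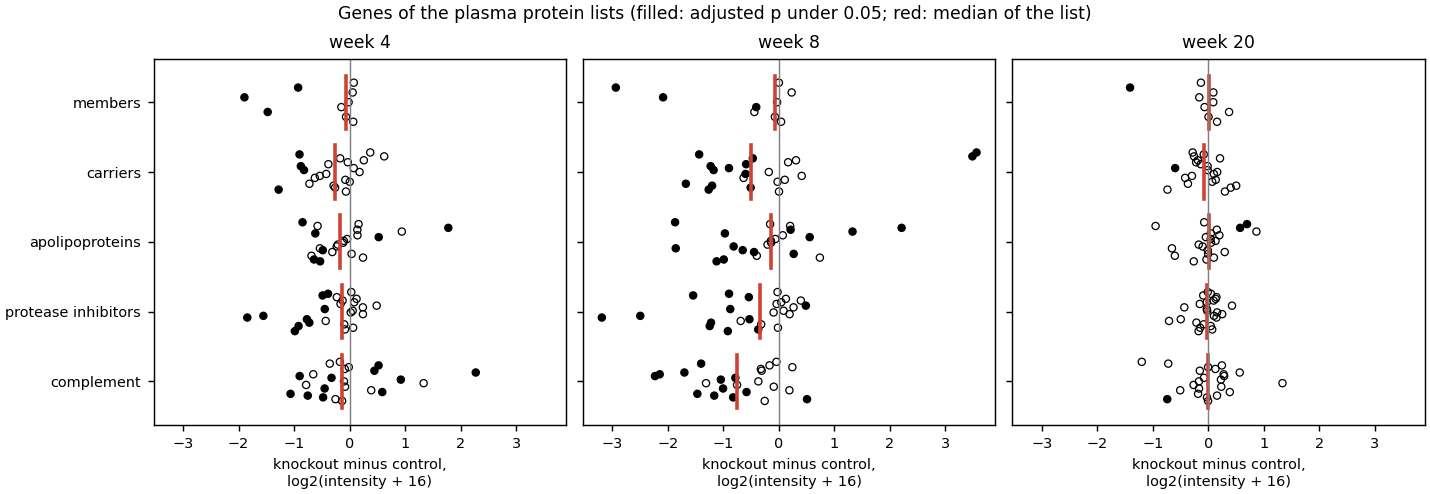
Knockout minus control difference on the log2(intensity + 16) scale at weeks 4, 8 and 20, 1 point per gene, for the 9 measured members and for the lists of carriers, apolipoproteins, protease inhibitors and complement. Filled points had an adjusted p under 0.05 and red bars mark list medians, which lie lowest at week 8 for carriers (-0.51), protease inhibitors (-0.35) and complement (-0.75).

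Transcription factors of hepatocytes were lower for 7 and higher for 1 of 24 at week 4, 14 and 0 at week 8, and 0 and 0 at week 20, with medians of -0.26, -0.60 and 0.30. The lower genes were 29.2% of the list at week 4 and 58.3% at week 8. Without control replicates 3 and 4, 1 was lower and 1 higher at week 20. Cebpa, C/EBP alpha, fell by 0.75 ± 0.15 at week 4 and by 1.28 ± 0.15 at week 8 (adjusted p = 6.9e-04 and 2.3e-07), and its week 20 difference was 0.37 ± 0.15 (adjusted p = 0.158). Hnf4a fell by 0.36 ± 0.11 at week 8 (adjusted p = 0.00792), with -0.06 ± 0.11 before it and 0.15 ± 0.11 after it (adjusted p = 0.722 and 0.428). Foxa2 passed the test at no week (adjusted p = 0.427, 0.482 and 0.513).

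Genes of the secretory pathway were lower for 5 and higher for 4 of 41 at week 4, 8 and 4 at week 8, and 5 and 0 at week 20, with medians of 0.09, -0.19 and -0.22. These were 12.2% lower and 9.76% higher at week 4 and 19.5% and 9.76% at week 8, at or below the shares of all genes. At week 8 Sar1b, a GTPase of the coat that carries cargo out of the endoplasmic reticulum, fell by 0.62 ± 0.10 and Srp9, of the signal recognition particle, by 0.66 ± 0.12 (adjusted p = 1.6e-05 and 4.6e-05). Ddit3, the stress factor CHOP, rose by 1.68 ± 0.23 at that week (adjusted p = 1.4e-06). The 5 lower genes of week 20, Sec61b, Srp54a, Srp14, Pdia3 and Dnajb9, had adjusted p-values of 0.0196 to 0.0477, and without control replicates 3 and 4 the count was 0.

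Receptors and uptake partners of the members were lower for 2 and higher for 4 of 19 at week 4, 4 and 6 at week 8, and 1 and 0 at week 20, with medians of 0.14, 0.03 and 0.02. At week 8 this was 21.1% lower and 31.6% higher. Tfrc, the transferrin receptor, rose by 1.72 ± 0.22 at week 4 and by 0.99 ± 0.22 at week 8 (adjusted p = 3.0e-06 and 7.5e-04), at which weeks Trf differed by -0.06 and -0.07. Asgr2, a subunit of the asialoglycoprotein receptor, fell by 1.10 ± 0.17 at week 8 (adjusted p = 1.0e-05). Hmox1, which breaks down haem, rose by 2.34 ± 0.37 at week 8 (adjusted p = 1.0e-05). Cd163, the haptoglobin-haemoglobin receptor of macrophages, fell at weeks 4, 8 and 20 by 1.75 ± 0.31, 1.69 ± 0.31 and 1.62 ± 0.31 (adjusted p = 1.6e-04, 8.6e-05 and 0.00328). Without control replicates 3 and 4 its week 20 difference was -0.75 (adjusted p = 0.111). The list still had 1 gene lower and 0 higher in that setting, and the lower gene was not Cd163.

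Markers of several other cell types were higher at week 8, when Alb was lowest. Macrophage markers were higher for 15 and lower for 1 of 20 at week 4, 18 and 1 at week 8, and 1 and 1 at week 20, and their summed intensity was 7712 to 9925 on control and 29173 to 59074 on knockout arrays of week 8. Stellate cell and matrix markers were higher for 10 and lower for 1 of 20 at week 4, 17 and 0 at week 8, and 1 and 2 at week 20, with week 8 sums of 10434 to 11503 and 31205 to 36254. Dividing cell markers were higher for 8, 14 and 2 of 15 at weeks 4, 8 and 20, with week 8 sums of 457 to 675 and 3804 to 7890.5, and Bub1, Ccna2 and Ccnb2 were not counted because their probes did not pass the background filter. Neutrophil markers were higher for 0 of 8 at week 4, 8 at week 8 and 0 at week 20, with week 8 sums of 33 to 133 and 921 to 2293, and Cxcr2 did not pass the filter.

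Other cell types showed smaller or mixed differences. Endothelial markers were lower for 2 and higher for 1 of 17 at week 4, 6 and 3 at week 8, and 0 and 1 at week 20, with week 8 sums of 10026 to 11350 on control and 8069 to 10466 on knockout arrays. Markers of T and NK cells were higher for 3, 6 and 1 of 10, those of B and plasma cells for 0, 2 and 0 of 3, and biliary and progenitor markers for 2, 4 and 1 of 8. Erythroid markers were lower for 1 and higher for 0 of 6 at week 4, 2 and 2 at week 8, and 0 and 0 at week 20 by limma. Without knockout week 8 replicate 4 the erythroid count of week 8 was 2 lower and 0 higher. Without control week 20 replicates 3 and 4, macrophage markers were higher for 2 and lower for 0 at week 20, stellate and matrix markers 1 and 0, dividing cell markers 1 and 0, and endothelial markers 0 and 0. The part of these cell types in the lower Alb and Apoh was not tested.

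Hepatocyte markers were lower for 7 of 12 at week 8, among them Alb, Tat (-1.52 ± 0.37) and Pck1 (-1.22 ± 0.27), and for 1 of 12, Alb, at week 20. The summed intensity of the 9 of them that are not members was 103186 to 112132 on control and 81268 to 95529.6 on knockout arrays of week 8. Such a sum is weighted to its brightest probes, and the mean log2 signal of the same 9 genes was 12.2 to 12.4 on control and 11.5 to 11.9 on knockout arrays of that week. At week 4 the sums were 97084 to 111112 on control and 84319.9 to 93680.04 on knockout arrays, without overlap. The mean log2 signal of the 9 genes at week 4 was 11.97 to 12.33 on control and 11.68 to 11.92 on knockout arrays. The lower hepatocyte signal was thus present at week 4 as well as week 8, and the week 4 count of lower markers is not given here. At week 20 the sums were 91128 to 106959.8 and 95328 to 120126.

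Genes whose pattern was most like that of Alb were named by Pearson's r over the 24 arrays, which share the 6 groups. The highest values were those of Chchd7, Cnpy2 and Syt1 (0.89 each), Mettl9 (0.88) and Reep2 (0.87). The lowest were those of Tprn, Tnfsf13b and Arl6ip1 (-0.89 each), Csprs and H2-DMb1 (-0.88 each). Among the members, r with Alb was 0.59 for Apoh, 0.58 for Rbp4, 0.53 for Serpina6, -0.46 for Apoa1, -0.15 for Ttr, and 0.08 to 0.09 for Trf, Ahsg and Hpx.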

How the data were processed

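Liver RNA of 24 mouse arrays was measured, 4 for each genotype and week. The deposited values are linear intensity, background-subtracted and normalized between arrays by the authors, as the negative values and the near-identical sorted columns show, and GenomeStudio 2011 is named per the submitters' processing notes. Another deposited table is not normalized: its 48 columns match no sample and were not used, and only its gene symbols were read. Symbols were updated through RefSeq (GRCm38.p6): the symbols of 20733 probes were current, 3872 were replaced, 1061 were kept and 31 stayed unnamed.

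Values were floored at 0 and taken as log2(intensity + 16). The background threshold was 16.4 (2.33 times a noise SD of 7.03). The 14528 probes above it on at least 4 arrays gave 10728 genes, each by its brightest probe. The number of arrays limits the precision. The 6 group means were modelled in R 4.3.3 with limma 3.58.1 (lmFit and eBayes with trend), two-sided, with Benjamini-Hochberg adjustment over all genes. Intervals are at 95%.

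Members, gene lists and the rule for named genes (members, up to 4 genes of lowest p per list and comparison, a fixed set that includes the albumin family and Dnmt1, and the 5 genes most and least like Alb) were chosen with earlier results of these data known. Alternatives were other offsets, filters, normalizations, variance models, probes and arrays left out. The fit was tested on simulated data of the week 8 comparison over 10728 genes, where changes of 0.5, 1, 2 and 3 on the log2 scale were recovered for 34%, 76%, 96% and 100% of 50 genes each, with 7 false calls among 160. The simulated data had independent normal noise and changed only those genes, whereas 5246 genes were called in the week 8 data. These rates therefore need not hold for the data.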

Additional observations from a re-analysis of the deposited data

Results flagged for a closer look

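Changes of the knockout-control difference between weeks passed the test for Alb (-2.01 from week 4 to 8 and 1.53 from week 8 to 20), for Apoh (1.93 from week 8 to 20 and 1.73 from week 4 to 20) and for Serpina6 (1.85 from week 4 to 20).

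In 4 of 66 sets of 4 arrays, 1 array lay far from the other three, where about 3.3 are expected by chance (1 in 20). The gap as a share of the range was 0.835 for Trf on control week 4 replicate 4 (37471), 0.845 for the brighter Ahsg probe on knockout week 4 replicate 3 (30242), 0.835 for Apoh on knockout week 20 replicate 1 (4761) and 1 for the brighter Hpx probe on control week 8 replicate 2 (37471, where the other arrays all held the highest value, 38683).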

How the results depend on the processing

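Direction and side of the threshold were kept for Alb and Apoh in each knockout-control comparison under every alternative tried, with Alb between -1.0 and -0.87 at week 4, -3.11 and -2.64 at week 8 and -1.79 and -1.26 at week 20, and Apoh between -2.00 and -1.79 at week 4 and -2.36 and -1.74 at week 8. Over all member differences, 1171 values under alternatives kept direction and call, 18 lost and 6 gained a call, and 25 changed sign. The Rbp4 call of week 8 was lost under 11 alternatives, with adjusted p between 0.0576 and 0.276. With the dimmer probe the differences were -0.050 and 0.15 for Ahsg at weeks 4 and 8 and 0.55, 0.34 and -0.00046 for Hpx at weeks 4, 8 and 20. With cyclic loess they were 0.014 for Ahsg at week 8 and -0.015 for Trf at week 20. Without control week 20 replicates 3 and 4 together, an alternative named with earlier results known, Serpina6 was -0.58 and Hpx -0.017 at week 20, and the Serpina6 change from week 8 to 20 was -0.13. Leaving out single arrays gave -0.0020 to 0.072 for Ttr and -0.015 to 0.025 for Ahsg at week 8, and -0.0013 to 0.24 for Ttr, -0.064 to 0.053 for Trf and -0.058 to 0.17 for Apoa1 at week 20. It gave -0.46 to 0.16 for the Apoh change from week 4 to 8, -0.57 to 0.050 for Apoh and -0.066 to 0.38 for Rbp4 within knockouts from week 4 to 8 and from week 8 to 20, and -0.21 to 0.52 for Serpina6 within controls from week 8 to 20. The count of members called within knockouts from week 4 to 8 was 1 to 2, the latter without knockout week 8 replicate 3. Same-numbered arrays did not deviate together (r between -0.146 and 0.041 over 11 pairs, 0 over 0.1), so numbers were not taken to pair arrays, and the replicate block gave 3, 2 and 1 members called at weeks 4, 8 and 20 and a Ttr difference of -0.040 at week 8. Of all genes, 608 were called at week 20, against 390 with no filter, 131 with only the arrays compared, 266 with the replicate block, 306 without both control replicates 3 and 4, and 284 to 720 leaving out single arrays. The causes of these changes were not tested. Probes near the highest value limited what could be measured of a rise, and whether saturation also hid a fall was not tested.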
